A study of Homo sapiens with 12 samples.

Results

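The 8 genes described here encode the epidermal growth factor receptor system around its TGFA-type ligands. They are 3 receptors (EGFR, ERBB2 and ERBB3), 4 ligands (TGFA, AREG, EREG and HBEGF) and the feedback inhibitor ERRFI1. They were chosen by gene symbol among the 23106 symbols counted in each library. All 8 were listed, and 5 of them passed the expression filter in both fits. RNA was sequenced from RCC4 cells, a long-established human line of clear cell renal carcinoma that lacks functional VHL, 48 h after transfection with pools of siRNA. Every dish received 2 nM of siRNA in total. The control group received 2 nM of control siRNA, the HIF1A siRNA group 1 nM of HIF1A siRNA with 1 nM of control siRNA, the HIF2A siRNA group 1 nM of HIF2A siRNA with 1 nM of control siRNA, and the double knockdown 1 nM of each HIF siRNA with no control siRNA. HIF2A siRNA is directed against EPAS1, the gene of HIF-2α. The double knockdown was not analyzed by the study. Each group had 3 replicates, 12 libraries in all, and all 4 groups share the VHL defect, with no group in which VHL is restored. One cell line carries every result.

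EGFR is a receptor tyrosine kinase of the cell surface. Ligands such as TGFA, amphiregulin (AREG), epiregulin (EREG) and heparin-binding EGF-like growth factor (HBEGF) are made as membrane-bound precursors and are released by metalloproteases of the ADAM family. A bound receptor pairs with another EGFR molecule or with ERBB2 or ERBB3 and signals through RAS, RAF, MEK and ERK and through PI3-kinase, and ERRFI1 (also called MIG6) binds the active kinase and inhibits it. TGFA is a known product of clear cell renal carcinoma cells and is commonly described as a gene that responds to HIF-2 in cells without VHL.

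TGFA RNA was lowest in the double knockdown, with 54.3 ± 9.62 CPM (mean ± SD, n = 3, where CPM is the count relative to the library total after TMM scaling) against 94.96 ± 9.16 CPM with control siRNA. It was the only one of the 5 tested members that passed the edgeR test of the main fits in a comparison planned with the design. It passed in the double knockdown against control siRNA and against HIF1A siRNA, where 6.42 and 0.969% of all genes tested passed as lower. EGFR RNA differed more between replicate numbers than between siRNAs, ERBB2 RNA stayed between 43.6 and 71.9 CPM over the 12 libraries, and HBEGF and ERRFI1 had smaller fitted changes than TGFA in the double knockdown. ERBB3, AREG and EREG had at most 16, 8 and 1 counts in any library. Bulk RNA does not tell a smaller number of cells with a transcript from less RNA in each cell.

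Total counts were 13263168 in the shallowest and 20451433 in the deepest library, and a count of 3, taken as the floor of detection, corresponded to 0.146 to 0.226 CPM. HIF1A RNA was 96.7 ± 33.6 CPM with control siRNA, 18.3 ± 3.62 CPM after HIF1A siRNA, 121 ± 13.3 CPM after HIF2A siRNA and 28.7 ± 4.09 CPM in the double knockdown. EPAS1 RNA was 157 ± 16.9 CPM with control siRNA, 114 ± 17.7 CPM after HIF1A siRNA, 10.1 ± 1.53 CPM after HIF2A siRNA and 8.94 ± 2.16 CPM in the double knockdown. The targeted genes thus followed the labels in all 12 libraries. Of 8 epithelial and renal marker genes, the summed level lay between 973 and 1596 CPM, with 1 of 7 tested genes lower with HIF1A siRNA and none with HIF2A siRNA, and 1 higher and 1 lower in the double knockdown. These were CA9, the carbonic anhydrase that HIF-1 is known to induce (226 ± 73.2 CPM with control siRNA and 18.7 ± 8.69 CPM with HIF1A siRNA), and KRT18, a keratin of simple epithelium (111 ± 28.4 CPM with control siRNA and 159 ± 53.7 CPM in the double knockdown). The KRT18 call was lost in 9 of 19 alternatives, among them without any 1 of the double knockdown libraries, any replicate number or the replicate block. Over all genes tested, 1.14% passed as lower with HIF1A siRNA and 0.0857% with HIF2A siRNA. In the double knockdown 3.86% passed as higher and 6.42% as lower. CDH1, the epithelial cadherin, had at most 9 counts in any library. Of 8 markers of other cell types, the leukocyte gene PTPRC and the endothelial gene PECAM1 had 0 counts in all 12 libraries, the summed level of the list lay between 66.0 and 145 CPM, led by CD68 and COL1A1, and none of its 5 tested genes passed in any planned comparison.

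Among the receptors, EGFR showed the widest range of any abundant member. With control siRNA it had 130 CPM in replicate 1, 44.3 CPM in replicate 2 and 211 CPM in replicate 3. With HIF1A siRNA the values were 63.0, 54.2 and 234 CPM, with HIF2A siRNA 45.7, 96.8 and 175 CPM, and in the double knockdown 57.5, 31.8 and 188 CPM. All 4 libraries of replicate 3 had at least 175 CPM and the 8 others at most 130 CPM, and every group overlapped every other. The highest library held 7.37 times the CPM of the lowest. Replicate number took 75.7% of the sum of squares of log2 CPM of EGFR over the 12 libraries and siRNA 5.11%. With the sums of squares pooled over all genes tested, where more variable genes weigh more, these shares were 49.8 and 25.8%. The replicate share of EGFR was at least that of 82.3% of the genes tested.

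The fitted change of EGFR was -0.28 on the log2 scale with HIF1A siRNA (SE 0.347, 95% confidence interval -1.03 to 0.47) and -0.21 with HIF2A siRNA (SE 0.357, interval -0.98 to 0.56), each against control siRNA. In the double knockdown it was -0.65 (SE 0.335, interval -1.37 to 0.06, edgeR quasi-likelihood test with Benjamini-Hochberg adjustment, adjusted p = 0.244). The double knockdown was below control siRNA in 3 of 3 pairs of the same replicate number, at 44.4 to 89.5% of it, but the pairs of the single siRNAs went both ways. With all libraries in the fit and this spread between pairs, no change of EGFR was detected. Leaving out HIF2A siRNA replicate 2 alone brought the adjusted p of the double knockdown to 0.0314 (log2 change -0.64), and leaving out replicate 2 of every group brought it to 0.0404 (-0.72).

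ERBB2, the partner receptor that binds no ligand of its own, was at 53.6 ± 5.59 CPM with control siRNA, 55.7 ± 8.67 CPM with HIF1A siRNA, 56.5 ± 14.3 CPM after HIF2A siRNA and 55.4 ± 10.7 CPM in the double knockdown. The control libraries had 56.6, 47.1 and 57.0 CPM and those of the double knockdown 50.4, 48.2 and 67.7 CPM, so that the groups overlapped. The fitted log2 changes against control siRNA were 0.05, 0.07 and 0.04, with intervals of -0.34 to 0.43, -0.31 to 0.45 and -0.31 to 0.39 in the order HIF1A siRNA, HIF2A siRNA and double knockdown. None passed the test, and a change of up to 0.39 to 0.45 in either siRNA group or in the double knockdown lies within those intervals.

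ERBB3, the kinase-impaired partner that binds neuregulins, had 5, 2 and 1 counts with control siRNA, 6, 3 and 3 with HIF1A siRNA, 7, 6 and 16 after HIF2A siRNA and 4, 14 and 2 in the double knockdown. The highest of these was 1.05 CPM. The HIF2A siRNA libraries (0.375 to 0.848 CPM) lay above the control libraries (0.062 to 0.306 CPM), at few counts, and the other groups overlapped with control. The gene did not pass the expression filter, so a difference between the groups was not tested in the main fits.

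**Figure D1:**
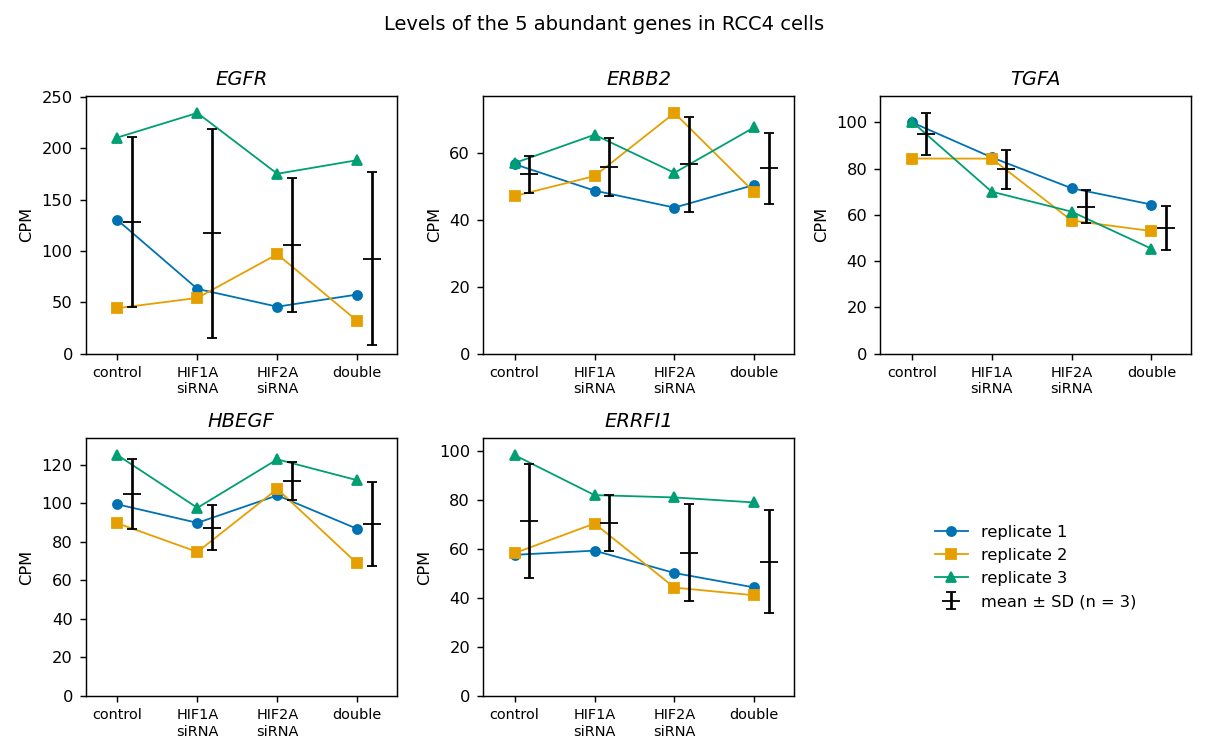
Levels of the 5 abundant members in CPM (vertical axes, from 0) in the 4 siRNA groups (horizontal axes), with 1 point per library, lines joining libraries of the same replicate number and black bars for the mean ± SD (n = 3). The TGFA points of the double knockdown lie between 45.4 and 64.5 CPM, all below the control points (84.4 to 100 CPM), whereas the EGFR points of replicate 3 (at least 175 CPM) lie above those of replicates 1 and 2, which overlap.

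Among the ligands, TGFA had 100, 84.4 and 100 CPM in replicates 1, 2 and 3 with control siRNA. It had 84.9, 84.4 and 70.1 CPM with HIF1A siRNA, 71.5, 57.6 and 61.4 CPM after HIF2A siRNA and 64.5, 53.0 and 45.4 CPM in the double knockdown. All HIF2A siRNA and double knockdown libraries lay below all control libraries, and the HIF1A siRNA group overlapped with both the control and the HIF2A siRNA group. In contrast to EGFR, 81.1% of the sum of squares of TGFA went with siRNA and 10.1% with replicate number.

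The order of the group means was control siRNA, HIF1A siRNA, HIF2A siRNA and double knockdown. No difference between neighbours in this order passed the test. HIF1A siRNA differed from control siRNA by -0.25 (SE 0.127, edgeR adjusted p = 0.754), HIF1A siRNA from HIF2A siRNA by 0.33 (SE 0.128, edgeR adjusted p = 0.379) and the double knockdown from HIF2A siRNA by -0.23 (SE 0.122, edgeR adjusted p = 0.342), all on the log2 scale. Each of these differences had the same direction in 3 of 3 pairs, although HIF1A siRNA replicate 2 was at 100.0% of its control.

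The fitted change of TGFA with HIF2A siRNA against control siRNA was -0.58 (SE 0.128, interval -0.85 to -0.30), and the 3 pairs were at 61.4 to 71.6% of control. Its unadjusted p was 0.000639 and its p adjusted over 12830 genes 0.205 (edgeR), so that it did not pass, whereas DESeq2 gave an adjusted p of 0.0158 for the same libraries and block. In this comparison 0.0857% of all genes tested passed, all of them lower, and none of the 5 members. In that of HIF1A siRNA against control siRNA 1.17% of the genes tested passed and in that of HIF1A siRNA against HIF2A siRNA 1.50%, again with none of the 5 members.

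In the double knockdown TGFA fell by 0.82 on the log2 scale against control siRNA (SE 0.122, interval -1.08 to -0.56, edgeR adjusted p = 0.00056), to between 45.5 and 64.6% of control in the 3 pairs. TGFA was 1 of 5 members to pass, where 10.3% of all genes tested passed, 6.42% as lower and 3.86% as higher. Without replicate 3 of every group the change was -0.65 and the adjusted p 0.0715. Against HIF1A siRNA, which adds HIF2A siRNA in cells that already received HIF1A siRNA, TGFA fell by 0.56 (SE 0.122, interval -0.82 to -0.30, edgeR adjusted p = 0.0337), 1 of 5 members where 1.40% of the genes tested passed, 0.969% as lower. That call was lost in 11 of 19 alternatives: without any 1 of the HIF1A siRNA or double knockdown libraries, without HIF2A siRNA replicate 3, without any replicate number and without the replicate block. In these the change lay between -0.66 and -0.46 and the adjusted p between 0.0543 and 0.744. Against HIF2A siRNA 4.0% of the genes passed and none of the members.

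The difference between the effect of HIF2A siRNA with and without HIF1A siRNA, the interaction, was 0.02 for TGFA (SE 0.172, interval -0.35 to 0.39), and none of the 5 members passed. In the main fit no gene at all passed this test with edgeR (0%), and 318 genes had an unadjusted p under 0.05. DESeq2 called 11 genes, edgeR with no filter 4, and edgeR with libraries left out at most 3. Averaged over both HIF1A states, a comparison added after the data were seen, HIF2A siRNA went with a TGFA change of -0.57 (SE 0.0862, interval -0.76 to -0.39, edgeR adjusted p = 0.0019), where 3.12% of all genes passed, 2.13% as lower. Without replicate 3 of every group this was -0.53 (edgeR adjusted p = 0.135). Averaged over both HIF2A states, HIF1A siRNA went with a change of -0.24 (SE 0.0861, interval -0.43 to -0.06, edgeR adjusted p = 0.113, or 0.0414 without replicate 2), where 6.75% of all genes passed, 4.83% as lower. The comparisons with control siRNA share the same 3 control libraries, and those of the averaged effects use all 12.

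**Figure D2:**
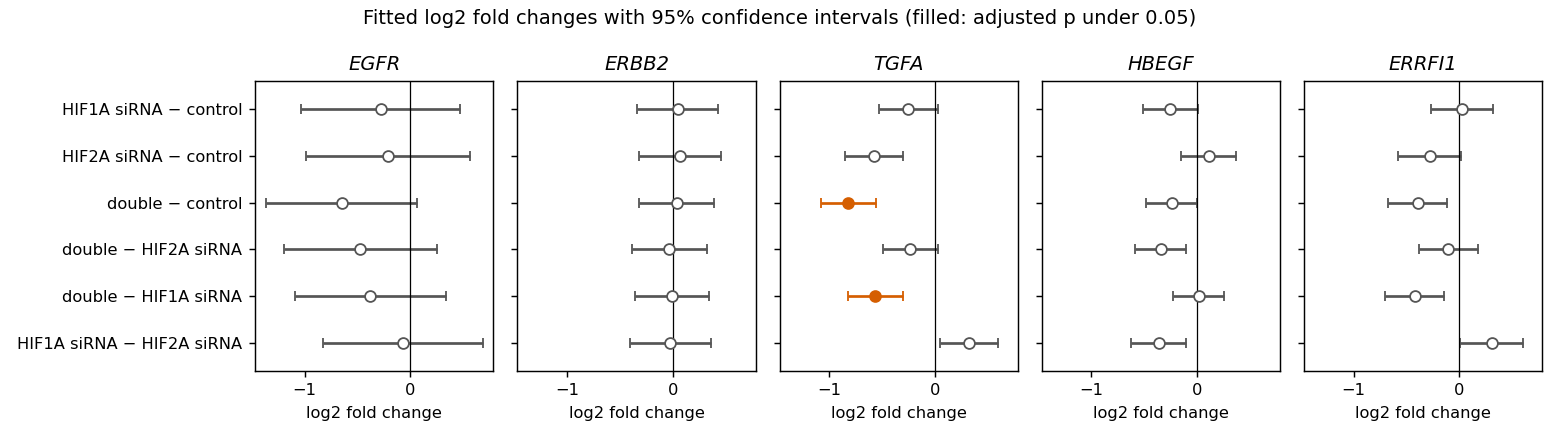
Fitted log2 fold changes (horizontal axes) of the 5 tested members in the 6 pairwise comparisons (vertical axis), with points for the estimate and bars for the 95% confidence interval. Filled points passed an edgeR adjusted p of 0.05, which only TGFA did, in the double knockdown against control siRNA (-0.82) and against HIF1A siRNA (-0.56).

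The genes whose levels over the 12 libraries were most like those of TGFA were ATG12, ABR and RFTN1. The root mean square difference from TGFA in log2 CPM, centred on each gene's mean, was 0.110, 0.174 and 0.180, among 7244 genes that varied by at least 0.3 (SD), where the SD of TGFA itself was 0.359. In the double knockdown against control siRNA their changes were -0.66 for ATG12, -0.68 for ABR and -0.71 for RFTN1. All libraries are shared between these genes, so the likeness is a description.

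HBEGF, a ligand that also binds heparin, had 99.5, 89.6 and 125 CPM with control siRNA and 89.8, 74.7 and 97.6 CPM with HIF1A siRNA. It had 104, 107 and 123 CPM after HIF2A siRNA and 86.7, 68.7 and 112 CPM in the double knockdown. Within each replicate number both groups that received HIF1A siRNA were below both groups that did not, although the groups overlapped when the numbers were ignored. Replicate number took 51.4% of the sum of squares of log2 CPM and siRNA 37.5%.

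HBEGF differed by -0.25 between HIF1A siRNA and control siRNA (SE 0.12, edgeR adjusted p = 0.696) and by -0.34 between the double knockdown and HIF2A siRNA (SE 0.112, edgeR adjusted p = 0.114), lower in 3 of 3 pairs in each. With HIF2A siRNA it differed from control siRNA by 0.11 (SE 0.12, interval -0.15 to 0.37). The mean of the effects of HIF1A siRNA over both HIF2A states, which was added after the data were seen, was -0.30 (SE 0.0788, interval -0.47 to -0.13, edgeR adjusted p = 0.0331). That call was lost in 11 of 19 alternatives: without any 1 of the HIF1A siRNA libraries, control siRNA replicate 2 or 3, double knockdown replicate 1 or 2, any replicate number or the replicate block. In these the adjusted p lay between 0.0568 and 0.64. Of all genes, 4.83% passed as lower for the averaged effect of HIF1A siRNA. The mean of the effects of HIF2A siRNA was 0.06 (SE 0.0787, interval -0.11 to 0.23). HBEGF and TGFA thus each passed in 1 of the 2 averaged comparisons, and for the averaged effect of HIF1A siRNA their changes, -0.30 and -0.24, lay within each other's intervals.

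AREG, the amphiregulin gene, had 3, 0 and 3 counts with control siRNA, 1, 1 and 3 with HIF1A siRNA, 2, 0 and 8 after HIF2A siRNA and 3, 5 and 5 in the double knockdown. EREG had 0 counts in 11 libraries and 1 count in the remaining library, HIF2A siRNA replicate 3. Both failed the expression filter, so a change of either was not tested in the main fits. A near-identical second copy of AREG is annotated in the genome build of the counts, and fragments without a unique position were removed, and the part of this in the AREG counts was not tested.

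To compare levels between genes, CPM was divided by the length of the main transcript in GENCODE v44. The counts were made on UCSC-defined genes of hg19. Levels per length are off where these annotations differ, which was not tested. With control siRNA HBEGF was at 44.4 ± 7.75 CPM per kb, TGFA at 23.1 ± 2.22, ERRFI1 at 23.1 ± 7.54, EGFR at 12.95 ± 8.39 and ERBB2 at 11.8 ± 1.23 CPM per kb (mean ± SD, n = 3). AREG was at 0.0999 ± 0.0865 and ERBB3 at 0.0278 ± 0.0234 CPM per kb. Among the members, ligand RNA was mainly that of HBEGF and TGFA and receptor RNA that of EGFR and ERBB2, whose levels per length differed by less than the spread of EGFR.

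The upstream sequence of the ligand genes is shown because TGFA and HBEGF were the members that passed a test after siRNA against a HIF subunit. HBEGF passed only for the averaged effect of HIF1A siRNA, added after the data were seen, a call lost in 11 of 19 alternatives. HIF binds DNA that holds ACGTG or GCGTG, and these letters were looked for on both strands in the 250 bases before each start in the RefSeq promoters of build GRCh38.p14. The table matched 7 of the 8 members, with 9 starts. A match stood in 3 of the 9 windows, 1 of TGFA, 1 of AREG and 1 of EREG, and in none of those of EGFR, ERBB2, HBEGF and ERRFI1. Of 35116 windows of the same length, 43.2% held at least 1 match, 18.5% ACGTG and 32.2% GCGTG. Capitals mark the matched letters in the sequences, which are printed 5′ to 3′ on the gene's own strand. The first is the part of the main TGFA window that lies outside annotated exons, at chr2:70553974-70554076 on the minus strand, the second the match before the other TGFA start, at chr2:70553480-70553509 on the minus strand, within intron 1 of the main transcript and the first exon of another, and the third the HBEGF window, at chr5:140346604-140346853 on the minus strand.
TGFA, main start: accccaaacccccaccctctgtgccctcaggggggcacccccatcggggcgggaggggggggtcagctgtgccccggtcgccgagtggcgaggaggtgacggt
TGFA, other start: tgcctgggccgtGCGTGagaacacctggga
HBEGF: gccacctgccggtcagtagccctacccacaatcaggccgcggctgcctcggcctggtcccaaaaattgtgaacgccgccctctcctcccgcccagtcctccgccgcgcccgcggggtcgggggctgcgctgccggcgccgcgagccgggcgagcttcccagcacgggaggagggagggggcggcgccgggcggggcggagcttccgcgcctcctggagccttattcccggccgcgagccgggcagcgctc
The 2 longer stretches are rich in G and C (74.8 and 76.4%). The share of windows with a match among the members, 3 of 9, says nothing about binding, and HIF can also act from distant sites that were not examined here.

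ERRFI1, the feedback inhibitor, is itself a gene that EGFR signalling is known to induce. It had 57.6, 58.3 and 98.4 CPM with control siRNA and 59.3, 70.4 and 82.0 CPM with HIF1A siRNA. With HIF2A siRNA it had 50.2, 44.2 and 81.1 CPM and in the double knockdown 44.3, 41.1 and 79.0 CPM. As for EGFR, the 4 libraries of replicate 3 (79.0 to 98.4 CPM) were above the 8 others (41.1 to 70.4 CPM), and 69.6% of the sum of squares of log2 CPM went with replicate number.

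Within pairs ERRFI1 was lower than control siRNA with HIF2A siRNA (76.0 to 87.2% of control) and in the double knockdown (70.7 to 80.4%), in 3 of 3 pairs each. The log2 differences were -0.28 (SE 0.137, edgeR adjusted p = 0.931) and -0.39 (SE 0.13, edgeR adjusted p = 0.0689), and neither passed. That of the double knockdown passed with DESeq2 (adjusted p = 0.0491) and without HIF1A siRNA replicate 2 or without HIF2A siRNA replicate 2 (edgeR adjusted p = 0.0403 and 0.0304). With HIF1A siRNA the difference was 0.02 (interval -0.27 to 0.32). Averaged over both HIF1A states, the effect of HIF2A siRNA was -0.36 (SE 0.0922, interval -0.55 to -0.16, edgeR adjusted p = 0.0515).

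**Figure D3:**
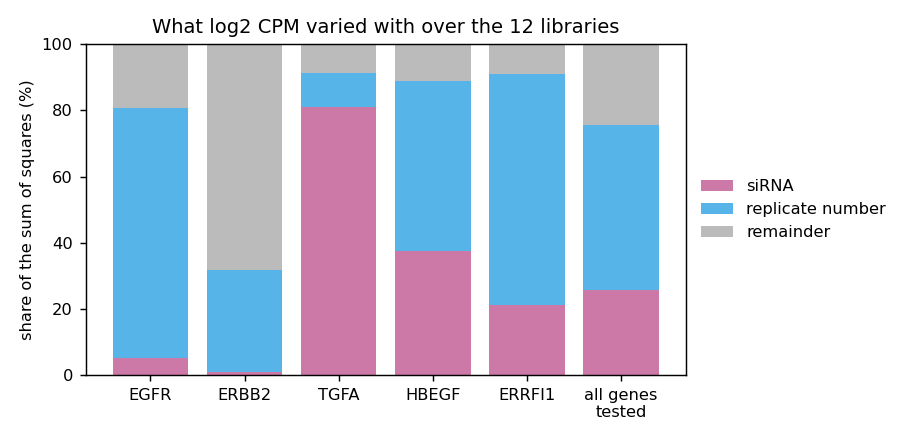
Share of the sum of squares of log2(CPM + 0.5) over the 12 libraries (vertical axis, %) that went with siRNA, with replicate number and with neither, for each of the 5 tested members and for the sums of squares pooled over all genes tested (horizontal axis). For TGFA 81.1% went with siRNA, whereas 75.7% for EGFR and 69.6% for ERRFI1 went with replicate number.

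Of the other genes of the family, 8 of 9 were listed and 3 were tested. NRG1, the neuregulin that binds ERBB3 and ERBB4, was the one that passed in any comparison. It had 76.6, 56.1 and 92.2 CPM with control siRNA and 114, 100 and 156 CPM in the double knockdown, and each double knockdown library was above the 3 others of its replicate number. NRG1 rose by 0.72 against control siRNA (SE 0.113, edgeR adjusted p = 0.000779), by 0.61 against HIF1A siRNA (adjusted p = 0.0131) and by 0.47 against HIF2A siRNA (adjusted p = 0.0287), higher in 3 of 3 pairs in each. Without replicate 3 of every group, none of these 3 calls held (edgeR adjusted p = 0.0567, 0.59 and 0.395), nor did any without the block (0.163, 0.923 and 0.767). In all, the calls against HIF1A and HIF2A siRNA were lost in 8 and 9 of 19 alternatives, among them without double knockdown replicate 1 (0.0714 and 0.106) or 3 (0.132 and 0.155). Of all genes tested, 3.86, 0.431 and 0.785% passed as higher in the double knockdown against control siRNA, HIF1A siRNA and HIF2A siRNA. With the single siRNAs NRG1 differed from control siRNA by 0.12 and 0.26, and neither passed. It also passed as higher for the averaged effects of HIF1A and HIF2A siRNA, added after the data were seen, where 1.92 and 0.985% of all genes did. These averaged calls were lost in 13 and 2 of 19 alternatives. Of the neuregulin receptors, ERBB3 had at most 16 counts in a library and ERBB4 had 0 counts in all 12 libraries. BTC, another EGFR ligand, had between 0.201 and 1.71 CPM, and EGF itself at most 9 counts.

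The 8 genes of ligand shedding were all tested. None passed with the single siRNAs, and in the double knockdown 1 was lower and 7 did not pass, where 6.42% of all genes passed as lower, with a median log2 change of the list of -0.20 against 0.00 over all genes tested. The gene was ADAM12, a metalloprotease that can cleave HBEGF, with 404, 203 and 313 CPM with control siRNA and 146, 107 and 202 CPM in the double knockdown. With HIF1A siRNA it had 159, 162 and 260 CPM and after HIF2A siRNA 214, 412 and 306 CPM. In the double knockdown ADAM12 fell by 1.04 against control siRNA (SE 0.265, edgeR adjusted p = 0.0212), and the call was lost in 6 of 19 alternatives, among them without control siRNA replicate 1 (-0.63, adjusted p = 0.145) or without double knockdown replicate 1 or 2. It also passed as lower against HIF2A siRNA, where 3.22% of all genes did, a call lost in 10 of 19 alternatives. The averaged effect of HIF1A siRNA, added after the data were seen, passed as lower too, where 4.83% of all genes did. That call was lost without the block (-0.85, edgeR adjusted p = 0.141). ADAM9, the list's most abundant gene, was at 499 ± 145 CPM with control siRNA and differed by -0.56 in the double knockdown (edgeR adjusted p = 0.067). ADAM17, the main sheddase of TGFA, was at 64.5 ± 25.0 CPM with control siRNA and 55.2 ± 28.0 CPM in the double knockdown.

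Among 12 genes that down-regulate the receptors, 11 were tested, and 1 passed as lower with HIF1A siRNA, none after HIF2A siRNA and 1 as lower in the double knockdown, where 1.17, 0.0857 and 10.3% of all genes passed. It was LRIG1 in both, a membrane protein known to promote loss of EGFR and other receptors of the family. LRIG1 had 28.9, 27.7 and 19.96 CPM with control siRNA, 13.8, 16.0 and 9.44 CPM with HIF1A siRNA, 25.3, 24.0 and 15.7 CPM after HIF2A siRNA and 10.6, 11.1 and 9.06 CPM in the double knockdown. The groups with HIF1A siRNA did not overlap with control siRNA. LRIG1 fell by 0.98 with HIF1A siRNA (SE 0.149, edgeR adjusted p = 0.00414) and by 1.30 in the double knockdown (SE 0.149, edgeR adjusted p = 4.5e-05), and its level after HIF1A siRNA was below that after HIF2A siRNA by 0.74 (edgeR adjusted p = 0.0242). That difference between the single siRNAs was lost in 9 of 17 alternatives, among them without any 1 of the HIF1A siRNA libraries, HIF2A siRNA replicate 1 or 3 or control siRNA replicate 3 (edgeR adjusted p = 0.0579 to 0.229) and without the block (0.924). The call with HIF1A siRNA against control siRNA was lost without HIF1A siRNA replicate 1 (edgeR adjusted p = 0.0621), without replicate 3 and without the block. PTPN12 and PTPN1, phosphatases and the most abundant genes of the list, passed in no planned comparison, with PTPN12 at 157 ± 20.7 CPM with control siRNA. For the averaged effect of HIF2A siRNA, added after the data were seen, PTPN12 passed as lower, where 2.13% of all genes did. That call was lost in 13 of 19 alternatives. The median log2 changes of the list were -0.07, -0.05 and -0.05 with HIF1A siRNA, HIF2A siRNA and both.

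All 24 genes of the signal relay from the receptor to ERK and to PI3-kinase were tested. With HIF1A siRNA 1 was lower and 23 did not pass, with HIF2A siRNA none of the 24 passed, and in the double knockdown 1 was higher, 4 were lower and 19 did not pass, 5 of 24 where 10.3% of all genes passed. The gene lower with HIF1A siRNA was MAP2K1, which encodes the kinase MEK1. It had 140, 137 and 117 CPM with control siRNA, 83.0, 85.7 and 68.8 CPM with HIF1A siRNA, 129, 120 and 117 CPM after HIF2A siRNA and 67.1, 54.5 and 60.9 CPM in the double knockdown. Every library with HIF1A siRNA was below every library without it. The changes were -0.73 (SE 0.112, edgeR adjusted p = 0.00434) with HIF1A siRNA, -0.10 (interval -0.34 to 0.15) after HIF2A siRNA and -1.11 (SE 0.11, edgeR adjusted p = 1.2e-05) in the double knockdown. That with HIF1A siRNA was lost without HIF1A siRNA replicate 1 or 3 (edgeR adjusted p = 0.0621 and 0.0729), without replicate 3 and without the block.

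In the double knockdown SOS1, the exchange factor that activates RAS, fell by 0.83 (SE 0.137, edgeR adjusted p = 0.00116), from 41.1 ± 11.4 to 23.7 ± 9.73 CPM, a call lost without the block (0.447). After HIF2A siRNA alone SOS1 was at 27.3 ± 9.16 CPM and differed from control siRNA by -0.60 (SE 0.15, edgeR adjusted p = 0.328). The averaged effect of HIF2A siRNA, added after the data were seen, was -0.62 (SE 0.0962, edgeR adjusted p = 0.00224), where 2.13% of all genes passed as lower. That averaged call was lost without replicate 3 of every group (edgeR adjusted p = 0.125) and without the block (0.735). In the double knockdown the adaptor gene SHC1 fell by 0.30 (edgeR adjusted p = 0.0443), a call that was lost in 15 of 19 alternatives. PIK3R2, a regulatory subunit of PI3-kinase, rose by 1.14 (SE 0.128, edgeR adjusted p = 3.7e-05), from 44.7 ± 7.33 to 98.2 ± 1.47 CPM. PIK3R2 was also above control siRNA in 3 of 3 pairs with each single siRNA (0.53 and 0.44), where it did not pass. The median log2 change of the list in the double knockdown was -0.14.

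Among 21 genes of ERK output and feedback, all tested, none passed with either single siRNA against control siRNA. In the double knockdown 2 were higher, 2 lower and 17 did not pass, where 10.3% of all genes passed (3.86% higher and 6.42% lower), with a median log2 change of -0.04. CCND1, the cyclin D1 gene, had 606, 568 and 330 CPM with control siRNA, 616, 634 and 313 CPM with HIF1A siRNA, 388, 412 and 188 CPM after HIF2A siRNA and 320, 288 and 170 CPM in the double knockdown. Within each replicate number both groups with HIF2A siRNA were below both groups without it. The change was -0.63 (SE 0.112, edgeR adjusted p = 0.0651) after HIF2A siRNA and -0.95 (SE 0.0995, edgeR adjusted p = 1.8e-05) in the double knockdown, and HIF1A siRNA was above HIF2A siRNA by 0.66 (edgeR adjusted p = 0.00682). That difference was lost in 5 of 17 alternatives, among them without HIF1A siRNA replicate 1 or 2 or HIF2A siRNA replicate 3 (edgeR adjusted p = 0.0741 to 0.0833), and the call in the double knockdown was lost without the block (0.339).

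SPRY1, an inhibitor of receptor kinase signalling, was low, with 95, 95 and 9 counts with control siRNA, 35, 7 and 9 with HIF1A siRNA, 90, 91 and 63 after HIF2A siRNA and 6, 12 and 10 in the double knockdown. It fell by 2.47 in the double knockdown against control siRNA (SE 0.633, edgeR adjusted p = 0.0223, lost in 6 of 19 alternatives, with -1.65 without replicate 1 of every group) and by 3.06 against HIF2A siRNA (SE 0.623, edgeR adjusted p = 0.011, lost in 4 of 19 alternatives). The immediate early genes FOS and FOSB rose by 1.45 and 1.40 in the double knockdown against control siRNA (edgeR adjusted p = 0.0121 and 0.00235), in 2 of 3 and 3 of 3 pairs. Both calls were lost without replicate 1 and without the block (edgeR adjusted p = 0.9 and 0.846), and that of FOS also without control siRNA replicate 1 or double knockdown replicate 2 and with DESeq2 (adjusted p = 0.177). The control libraries had 13.4, 1.91 and 0 CPM of FOS and the double knockdown libraries 32.3, 6.17 and 0 CPM.

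**Figure D4:**
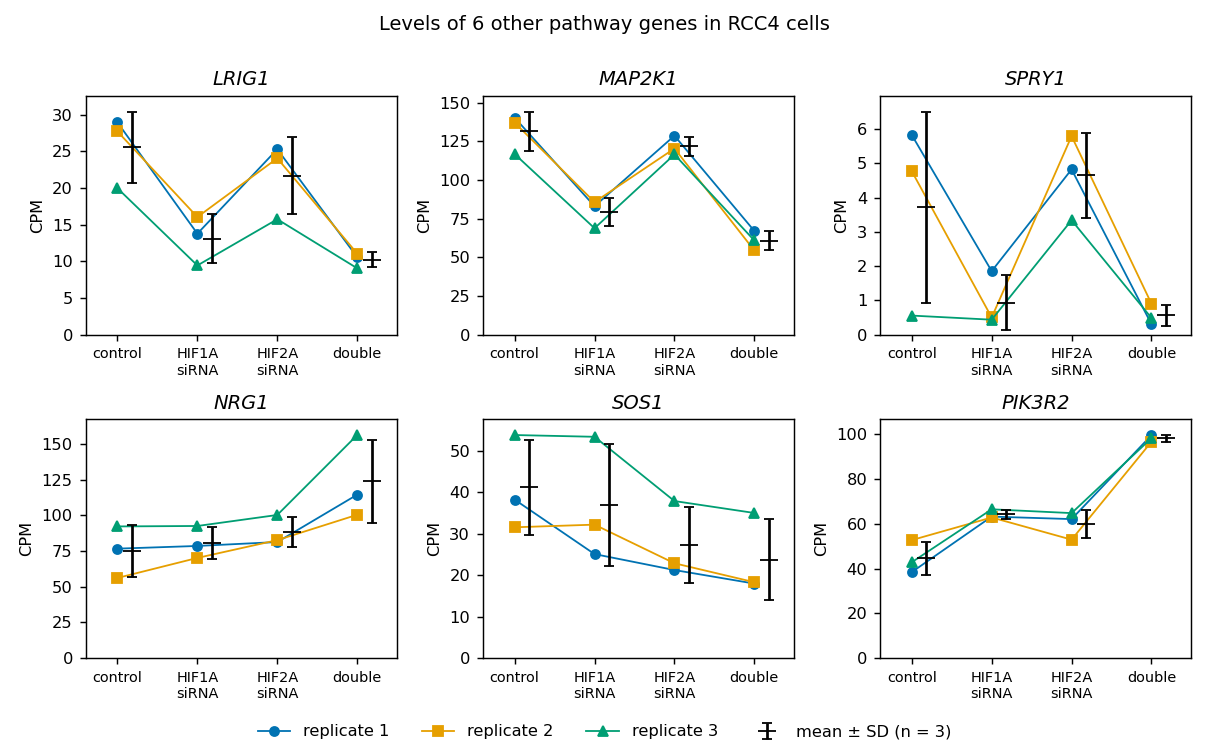
Levels in CPM (vertical axes, from 0) of 6 other genes of the pathway in the 4 siRNA groups (horizontal axes), drawn as for the members, with points for libraries, lines for replicate numbers and bars for the mean ± SD (n = 3). MAP2K1 (at least 116.5 CPM in libraries without and at most 85.7 CPM in libraries with HIF1A siRNA) and LRIG1 are lower in the groups with HIF1A siRNA. Within each replicate number SOS1 is lower in both groups with HIF2A siRNA, though it did not pass for HIF2A siRNA alone. NRG1 and PIK3R2 are higher in the double knockdown, and SPRY1 has at most 5.82 CPM.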

How the data were processed

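RNA was measured in 12 libraries of RCC4 cells. The authors trimmed reads with Trim Galore (0.3.3), aligned them to hg19 with HISAT2 (2.05), removed non-unique fragments with Picard (2.0.1), counted fragments per gene with HTSeq (0.5.4p3, intersection-strict) and deposited the counts of each symbol as raw numbers, not normalized. Whether counting used strand is not given in the sources used here, so genes overlapping on opposite strands are uncertain.

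Groups and replicate numbers came from the labels. Counts were tested with edgeR's quasi-likelihood test (4.0.16, R 4.3.3, limma 3.58.1) with TMM factors (0.980 to 1.02), edgeR's filter (10 counts, total 15), the replicate number as a block as in the study's methods, and Benjamini-Hochberg adjustment over all genes tested, with a threshold of 0.05. The 9 libraries without the double knockdown were fitted over 12830 genes, for the 3 comparisons of control, HIF1A and HIF2A siRNA, and all 12 libraries over 13000 genes for the others. Standard errors were derived from the F statistic and intervals cover 95%. CPM used total counts scaled by TMM factors, and pair ratios and shares of the sum of squares used log2(CPM + 0.5). Transcript lengths were those of the MANE Select transcripts in GENCODE v44. Intervals and floors (3 counts) cover the spread between libraries or counting error only. The replicates were called biological in the study's methods, without saying how they were separated. The p-values set a difference against the spread between these libraries that is left after siRNA group and replicate number.

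Deviations from the group means correlated by 0.0991 to 0.813 between libraries with the same number and by -0.724 to 0.527 between libraries with different numbers. The range was 0.0991 to 0.619 within replicate 1, 0.221 to 0.706 within replicate 2 and 0.724 to 0.813 within replicate 3. Replicate 1 of HIF1A and HIF2A siRNA correlated by 0.146 and 0.0991 with control siRNA replicate 1, but by 0.489 and 0.527 with control siRNA replicate 2. The matching by number was thus weaker for replicates 1 and 2 than for replicate 3. No replicates agreed within sampling noise. On simulated counts with 200 changed genes, edgeR found 20.9, 83.1 and 88.2% of changes of 0.5, 1 and 1.5 (log2) for HIF2A siRNA against control siRNA (12830 genes) and 19.7, 67.2 and 90% for the double knockdown (13000 genes), with 3.76 and 8.46% false calls. In the data 11 and 1336 genes passed in these comparisons. The adjustment depends on how many genes change, so these rates may not hold for the data.

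The members and the gene lists (other family genes, ligand shedding, receptor down-regulation, signal relay, ERK output and feedback, epithelial and renal markers, markers of other cell types) were chosen with earlier results of these data known. Named were all members and HIF1A and EPAS1, listed genes with an adjusted p under 0.05 in any of the 7 planned comparisons, in lists with fewer than 2 of these the 2 with the highest mean CPM, and the 3 genes most like a called member. The values of 1 gene of the signal relay are not reported here. ERBB4, EGF, ADAM17, PTPRC and PECAM1 were named after their values were seen. The 2 averaged comparisons were added after seeing the data. Alternatives were DESeq2 (1.42.0) size factors, no filter, no replicate block, DESeq2 as the test, all 12 libraries in the first fit, and each library or replicate number left out.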

Additional observations from a re-analysis of the deposited data

How the results depend on the processing

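No fitted change of a member that passed the test turned its direction under any of the alternatives run (17 for the comparisons in 9 libraries, 19 for the others). The number of members that passed, 1 in the double knockdown against control siRNA, was 2 with DESeq2 and 0 to 3 when libraries or replicate numbers were left out, with TGFA at -0.92 to -0.65. Against HIF1A siRNA it was 0 to 1 (TGFA at -0.66 to -0.46), and for HIF2A siRNA against control siRNA it was 1 with DESeq2. For the averaged effect of HIF1A siRNA it was 0 to 1 with libraries left out. For the averaged effect of HIF2A siRNA it was 2 with no filter, 2 with DESeq2 and 0 to 2 with libraries left out, where EGFR (-0.61 without HIF2A siRNA replicate 2 and -0.58 without replicate 2) or ERRFI1 (-0.43 without HIF1A siRNA replicate 3) joined TGFA. Without the replicate block the number was 1 in the double knockdown against control siRNA and 0 against HIF1A siRNA and for both averaged effects, and the block moved no other count of members.

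Changes that had not passed turned direction in some alternatives. Without the block, ERRFI1 was at -0.014 with HIF1A siRNA against control siRNA and EGFR at 0.14 with HIF1A siRNA against HIF2A siRNA. With libraries left out, EGFR ranged from -0.66 to 0.33 with HIF1A siRNA and -0.92 to 0.48 with HIF2A siRNA against control siRNA, -0.46 to 0.56 between the single siRNAs, -0.85 to 0.20 for the double knockdown against HIF2A siRNA, -1.04 to 0.69 for the interaction and -0.61 to 0.010 for the averaged effect of HIF2A siRNA. ERBB2 ranged from -0.11 to 0.23 with HIF1A siRNA, -0.24 to 0.30 with HIF2A siRNA and -0.073 to 0.20 in the double knockdown against control siRNA, -0.18 to 0.25 between the single siRNAs, -0.12 to 0.10 and -0.21 to 0.27 when the double knockdown was set against HIF1A and against HIF2A siRNA, -0.37 to 0.28 for the interaction, and -0.12 to 0.15 and -0.11 to 0.13 for the averaged effects of HIF1A and HIF2A siRNA. ERRFI1 ranged from -0.14 to 0.16 with HIF1A siRNA, -0.31 to 0.037 for the interaction and -0.12 to 0.036 for the averaged effect of HIF1A siRNA. HBEGF ranged from -0.083 to 0.10 in the double knockdown compared with HIF1A siRNA and -0.25 to 0.058 for the interaction, and TGFA from -0.11 to 0.12 for the interaction. The causes were not tested.

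Over all genes, calls in the double knockdown against control siRNA went from 1336 to 195 without the block, to 1842 with DESeq2, to 302 without replicate 3 and to 2307 without HIF2A siRNA replicate 2. For HIF2A siRNA against control siRNA they went from 11 to 1 without the block or without control siRNA replicate 3 and to 58 with DESeq2. For HIF1A siRNA against control siRNA they went from 150 to 41 without the block, to 236 with DESeq2 and to 66 without HIF1A siRNA replicate 1. Between the single siRNAs they went from 193 to 90 without HIF1A siRNA replicate 1 and to 351 without control siRNA replicate 1. For the double knockdown they went from 182 to 26 without replicate 3 and to 442 without HIF2A siRNA replicate 2 against HIF1A siRNA, and from 520 to 158 without replicate 3 against HIF2A siRNA. For the averaged effects of HIF1A and HIF2A siRNA they went from 878 to 312 and from 405 to 46 without replicate 3, and the latter to 787 without HIF2A siRNA replicate 2. In comparisons with a group left with 2 libraries, those libraries share the spread of the others. The sum of AREG and its near-identical copy, planned as an alternative, was not run, as the copy is not among the symbols used here.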
